A study of Mus musculus with 16 samples.

Results

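The amino acid transporters examined here were 10 genes whose products carry cystine, neutral amino acids or cationic amino acids into cells, and whose transcription has been tied to the factor ATF4. They were Slc7a11, Slc3a2, Slc7a5, Slc7a1, Slc7a3, Slc38a1, Slc38a2, Slc1a4, Slc1a5 and Slc6a9. The members were found by symbol, and every probe set (the group of short probes that reports 1 transcript on an Affymetrix array) annotated to a single gene was kept, which gave 20 of the 34945 single-gene probe sets on the array. Cultured mouse embryonic fibroblasts were profiled in 4 groups of 4 arrays: CHOP+/+ cells left unstressed, CHOP+/+ cells given 1 µM MG132 (a peptide aldehyde that inhibits the proteasome) for 8 hours, and CHOP-/- cells under the same 2 conditions. CHOP is the stress-induced transcription factor encoded by Ddit3, and the series asks which genes need it to respond when the proteasome is blocked. The labels give the unstressed cells no treatment in one field and the solvent DMSO for 8 hours in another. Each array came from its own culture plate, but nothing in the labels says whether plates of one genotype came from separate embryos or from 1 line, so p-values measure the spread between plates.

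Amino acid transporters of the plasma membrane include exchangers, sodium-coupled carriers and facilitated carriers that need no sodium. Several light chains of the SLC7 family reach the cell surface only when paired with the heavy chain CD98, the product of Slc3a2. When protein folding fails or amino acids run short, phosphorylation of the initiation factor eIF2 alpha lowers general protein synthesis and raises translation of ATF4, which induces genes for amino acid uptake and synthesis together with Ddit3. In fibroblasts the cystine carrier encoded by Slc7a11 is best known for feeding glutathione synthesis.

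Values are linear array signals scaled by the authors to a common trimmed mean. Arrays carried median signals of 90.1 to 113, and a gene was tested if its probe set lay above the array's own median on at least 4 of the 16 arrays, which 11451 genes passed. All 10 transporters passed, 9 of them above the median on all 16 arrays and Slc7a3 on 13, of which 1 was an unstressed wild-type array. Ddit3, the disrupted gene, had a mean signal of 1017 ± 101 (SD, n = 4) in unstressed and 7724 ± 587 in MG132-treated wild-type cells, against 368 ± 24.0 and 396 ± 38.9 in the knockout; the labels do not say whether its probes fall inside the deleted sequence. The 10 fibroblast markers lay above the median on all 4 arrays of each group except in unstressed knockout cells, where Pdgfra had a mean of 118 against 2351 in wild-type cells; Thy1 differed the other way, with 2727 against 227. Summed neural markers ran from 4291 to 6005 on wild-type arrays and from 1101 to 2016 on knockout arrays. Unstressed, Sox2 and Map2 had means of 1775 and 2416.5 in wild-type against 184 and 346 in knockout cells. Nes (1109 against 1222) and Gfap (48.6 against 87.0) went the other way. For skeletal muscle markers the sums were 1142 to 1440 on unstressed and 525 to 778 on treated wild-type arrays. On knockout arrays they were 534 to 767 and 551 to 742. Summed fat cell markers ran from 1091 to 1296 on wild-type and from 366 to 514 on knockout arrays, while summed fibroblast markers ran from 155791 to 182878 on unstressed and from 136935 to 151760 on treated wild-type arrays, and from 153155 to 168649 and 113363 to 119300 on the corresponding knockout arrays. Summed epithelial markers ran from 291 to 533 on unstressed and from 872 to 1218 on treated wild-type arrays, and from 295 to 459.9 and 595 to 643 on the corresponding knockout arrays. Krt14 had means of 10.1 and 471 in wild-type and 10.4 and 63.6 in knockout cells. Of 6 leukocyte markers, summed at 361 to 726, Ptprc had group means of at most 29.7, whereas Csf1r went from 229.9 to 321 and Cd68 from 135 to 217 with MG132 in wild-type cells. Of 4 endothelial markers, summed at 84.6 to 402, Pecam1 had group means of at most 14.2, whereas Kdr went from 43.9 to 181 in the knockout. The part of these differences in the transporter results was not tested. In these bulk samples, fewer cells of a type and less RNA per cell cannot be told apart.

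With MG132 the signal of all 10 transporters rose in wild-type cells and that of 9 rose in CHOP-/- cells, and none fell in either. Among all tested genes 27.2% rose and 36.9% fell in wild-type cells, and 25.7% rose and 36.8% fell in the knockout, so the transporters moved in the direction that was the less common one. Treated and unstressed arrays did not overlap for 9 transporters in wild-type cells and 9 in the knockout, where 23.3% and 24.1% of all tested genes were higher on every treated array. On the log2 scale the median response of the transporters was 0.76 in wild-type and 1.06 in knockout cells, beside -0.07 in both for all tested genes. Calls rest on limma's moderated test with Benjamini-Hochberg adjustment over all tested genes and a threshold of 0.05. The share of all calls that were increases was 42.4% in wild-type and 41.2% in knockout cells, and became 61.6% and 55.8% when each array was centred on the median of the tested genes, which shifted every response by 0.20 and 0.14. That shift raised every response, so it could not have turned a rise into a fall. Centring on the median of all probe sets shifted wild-type responses by -0.05 instead. With it the rise of Slc38a2 in wild-type cells was not called (0.09, adjusted p = 0.300, limma). Nor was it called with quantile normalisation (0.04, adjusted p = 0.466, limma).

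**Figure D1:**
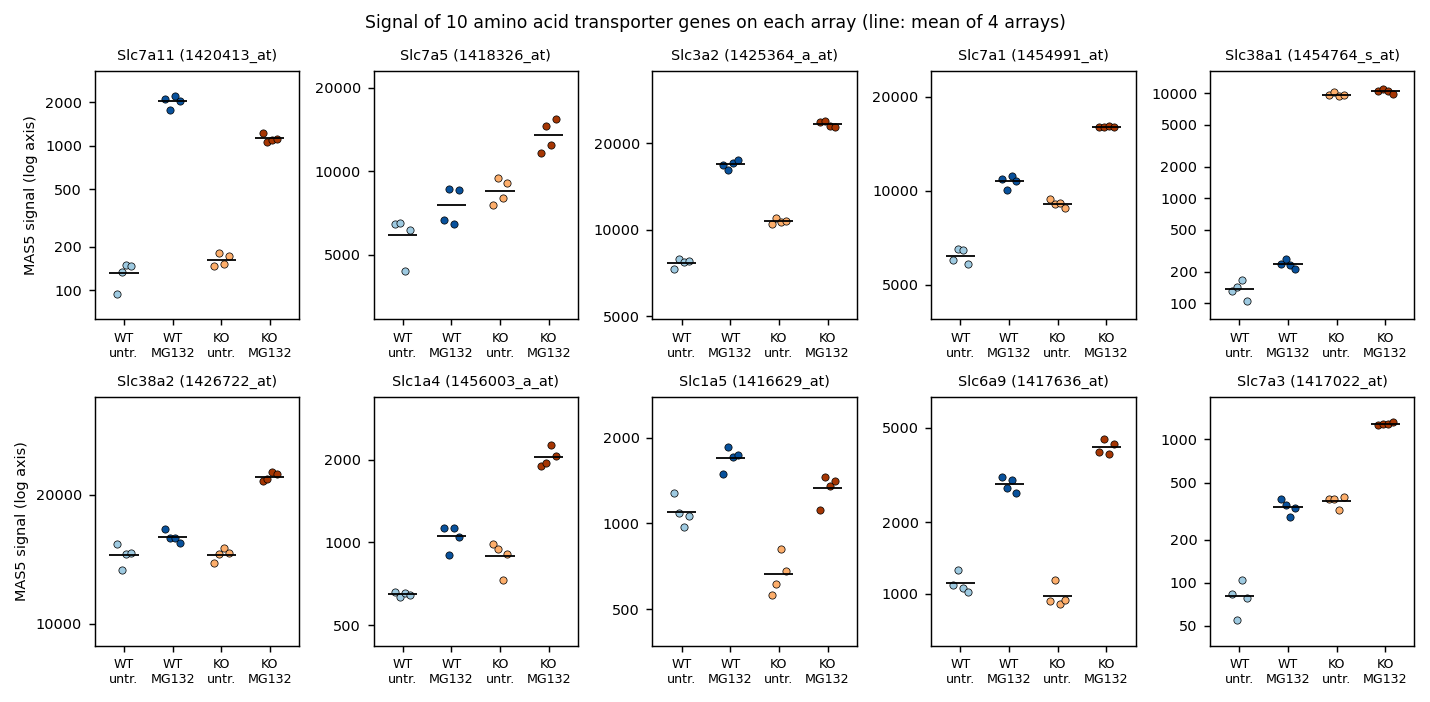
Signal of each of the 10 transporters on each of the 16 arrays, with 1 panel per gene, the 4 groups along the x axis and the linear array signal on a log-scaled y axis. Points are single arrays and lines are group means, with WT for wild-type, KO for CHOP knockout and untr. for unstressed. Slc7a11 rises in both genotypes. Slc38a1 separates the genotypes far more than the treatments, although its treated wild-type arrays lie above the unstressed ones.

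Slc7a11 encodes xCT, the light chain that imports cystine in exchange for glutamate. It lies on mouse chromosome 3, from 50364936 to 50499087 in GRCm38.p6. Its promoter carried 2 copies of the core of the composite element bound by dimers of C/EBP and ATF family proteins, in opposite orientations, and is shown for that reason. The window is 300 bases of RefSeq sequence, chr3:50443564-50443863 on the minus strand. It is printed 5′ to 3′ with 250 bases before and 50 after an annotated start. That start lies inside the gene span given above, not at the 5′ end of the span. Capitals mark the matches to TGATGNAA read on either strand.
Slc7a11: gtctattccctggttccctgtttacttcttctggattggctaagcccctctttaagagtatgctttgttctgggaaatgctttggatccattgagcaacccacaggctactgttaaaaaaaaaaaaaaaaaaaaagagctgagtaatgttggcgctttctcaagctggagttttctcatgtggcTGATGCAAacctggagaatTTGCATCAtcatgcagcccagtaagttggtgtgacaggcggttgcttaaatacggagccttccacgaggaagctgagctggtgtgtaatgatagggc
The matches began 66 and 47 bases before the start. Of 32851 such windows from mouse genes, 3.97% held at least 1 match and 0.0700% held 2 or more. A match is a run of letters and not a measured binding site.

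In unstressed wild-type cells Slc7a11 read 94.0, 134, 149.7 and 148 on the 4 arrays, and with MG132 it read 2122, 1761, 2217 and 2048. In CHOP-/- cells it read 147, 181, 152 and 172 without MG132 and 1234, 1063, 1100.2 and 1123 with it. No treated array came near an unstressed one in either genotype, and the treated knockout arrays all lay below the treated wild-type arrays. The log2 increase was 3.81 (SE 0.12, adjusted p = 7.53e-16, limma) in wild-type cells, the 14th largest of 11451 genes, and 2.68 (SE 0.12, adjusted p = 1.95e-13) in the knockout, where it ranked 15th. The difference between these responses was -1.13 (95% interval -1.49 to -0.77, adjusted p = 5.77e-05, limma interaction term), so the increase was smaller without CHOP. The treated knockout cells had 0.555 times the wild-type mean signal, a log2 difference of -0.84 (adjusted p = 5.58e-06, limma). A second Slc7a11 probe set, with means of 58.4 and 562 in wild-type and 57.9 and 406 in knockout cells, rose by 2.96 and 2.51 on the log2 scale, and its interaction of -0.45 missed the threshold (adjusted p = 0.184, limma over probe sets). Unstressed signals of this gene were near the array median, so its fold depends on the constant of 16 added before taking logs: with constants of 1 and 64 the wild-type response was 3.96 and 3.43.

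Slc3a2 encodes the heavy chain CD98 that xCT and the LAT1 carrier need at the membrane, and is annotated to chromosome 19 from 8706882 to 8723369. Wild-type arrays read 7309, 7939, 7711 and 7798 without MG132 and 16851, 16126, 17091 and 17501 with it. Knockout arrays read 10493, 10950.4, 10666 and 10733 without and 23770.4, 23880.2, 23064 and 22799 with it. The 4 groups did not overlap, and their order was unstressed wild-type, unstressed knockout, treated wild-type, treated knockout. The log2 response was 1.13 (SE 0.04, adjusted p = 3.30e-15, limma) in wild-type and 1.12 (SE 0.04, adjusted p = 3.85e-15) in knockout cells. The difference between responses was -0.01, with a 95% interval of -0.13 to 0.11, a range that does not include the size seen for Slc7a11. The knockout was higher by 0.48 without and 0.47 with MG132 on the log2 scale (adjusted p = 2.16e-09 and 2.77e-09, limma).

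Slc7a5 encodes LAT1, the CD98-linked exchanger of large neutral amino acids, and lies on chromosome 8 from 121881146 to 121907686. Wild-type arrays read 6477, 6523, 4386 and 6143 without MG132 and 6661, 8668, 6473 and 8546 with it, so these groups overlapped. Knockout arrays read 7537, 9467, 8019 and 9057 without and 11683, 14586, 12465 and 15376 with it, and here the groups were apart. The log2 response of 0.37 in wild-type cells (SE 0.12, adjusted p = 0.0121, limma) depended on single arrays. Without unstressed wild-type replicate 3 it was 0.24 (adjusted p = 0.0623, limma), and without treated wild-type replicate 2 it was 0.30 (adjusted p = 0.0503). The knockout response was 0.66 (adjusted p = 8.67e-05, limma), and the difference between responses was 0.29 with a 95% interval of -0.07 to 0.65 (adjusted p = 0.228). Without unstressed wild-type replicate 3 that difference was 0.43 and passed the threshold (adjusted p = 0.0346, limma). Knockout cells exceeded wild-type cells by 0.55 unstressed and 0.84 treated (adjusted p = 0.000777 and 6.44e-06, limma).

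The cationic carriers take up arginine, lysine and ornithine. Slc7a1, on chromosome 5 from 148327410 to 148399904, encodes the widely expressed carrier CAT1. Its wild-type arrays read 5996, 6516, 6457 and 5822 without MG132 and 10949, 10026, 11188 and 10720.2 with it. Its knockout arrays read 9427, 9059.6, 9145 and 8795 without and 15949, 15981, 16151 and 16056 with it. As with Slc3a2, the groups were apart and the knockout stood above the wild-type in both conditions. The log2 responses were 0.79 and 0.82 (SE 0.05 for both, adjusted p = 6.08e-12 and 4.32e-12, limma), and their difference was 0.03 with a 95% interval of -0.11 to 0.16. Of the other Slc7a1 probe sets, the bright one gave responses of 0.69 and 0.96. The dim one, with means of 101 to 334, gave 1.64 and 0.78, and neither interaction passed the threshold (adjusted p = 0.0674 and 0.0868, limma over probe sets). The dim one was lower in the treated knockout than in the treated wild-type, by -0.70 (adjusted p = 0.0243, limma over probe sets), opposite to the bright probe sets.

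Slc7a3 encodes CAT3, a cationic carrier best known from the brain, and lies on the X chromosome from 101079146 to 101090452. Unstressed wild-type arrays read 83.5, 54.6, 105 and 78.3, around or below the array median, and treated wild-type arrays read 384, 346, 287 and 333. Unstressed knockout arrays read 383, 385, 322 and 396, and treated knockout arrays read 1268, 1290.5, 1276 and 1319. The unstressed knockout thus overlapped the treated wild-type, and the treated knockout lay above every other array. Slc7a3 rose by 1.89 (SE 0.14, adjusted p = 2.08e-10, limma) in wild-type and 1.76 (SE 0.14, adjusted p = 7.86e-10) in knockout cells. The difference between responses was -0.14, with a wide 95% interval of -0.54 to 0.27. Knockout cells exceeded wild-type cells by 2.03 unstressed and 1.89 treated on the log2 scale (adjusted p = 9.61e-11 and 2.85e-10, limma). Its low wild-type signals make these sizes depend on the added constant, with an unstressed genotype difference of 2.23 and 1.60 at constants of 1 and 64.

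**Figure D2:**
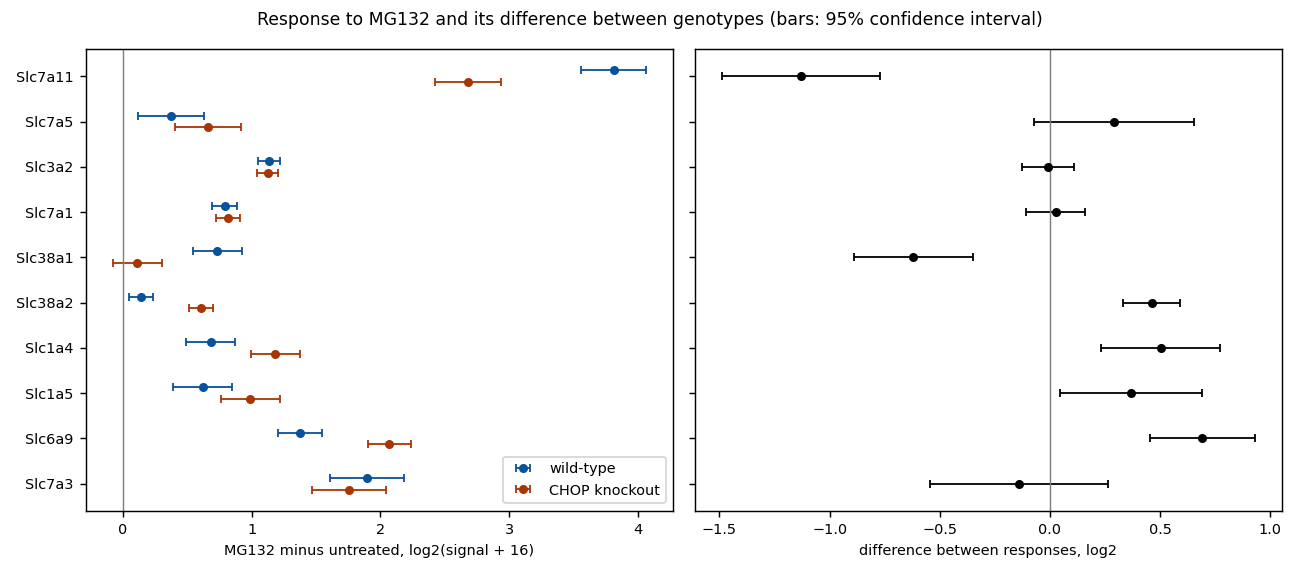
Left, log2 change of each transporter with MG132 in wild-type and in CHOP knockout cells; right, the difference between those responses (knockout minus wild-type), both with 95% intervals from limma (n = 4 arrays per group). Slc7a11 stands out with 3.81 and 2.68; Slc3a2 and Slc7a1 have nearly equal values in both genotypes, and Slc6a9, Slc1a4 and Slc38a2 have larger ones in the knockout.

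Slc38a1 and Slc38a2 encode SNAT1 and SNAT2, sodium-coupled importers of small neutral amino acids including glutamine. The 2 genes are neighbours on chromosome 15, Slc38a1 from 96571418 to 96643438 and Slc38a2 from 96687392 to 96699728. Slc38a1 read 132, 144, 166 and 106 on unstressed and 235, 264, 232 and 214 on treated wild-type arrays. On knockout arrays it read 9547, 10305, 9386 and 9564 without MG132 and 10433, 10949, 10602 and 9945 with it. Every knockout array was far above every wild-type array. The knockout-to-wild-type ratio of mean signals was 70.8 unstressed and 44.4 treated, the 7th largest log2 difference of 11451 genes in both conditions. The fitted log2 differences were 6.002 (SE 0.09, adjusted p = 9.72e-21, limma) and 5.38 (SE 0.09, adjusted p = 3.09e-20).

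The 2 probe sets of Slc38a1 shared the genotype difference but not the response to MG132. The brighter one, described above, carries the suffix that Affymetrix gives to probe sets that may also match other transcripts. By it Slc38a1 rose by 0.73 in wild-type cells (adjusted p = 6.08e-07, limma) and gave 0.11 in the knockout (adjusted p = 0.302), where the groups overlapped, so the interaction was -0.62 (adjusted p = 0.0012). By the other, wild-type arrays read 174, 242, 238 and 239.6 without and 297, 309, 409 and 383 with MG132. Its knockout arrays read 3608, 3993, 3718 and 3866 without and 6513, 6756, 6529 and 6804 with MG132. That probe set rose by 0.61 and 0.81 (adjusted p = 3.45e-05 and 1.22e-06, limma over probe sets), and its interaction was 0.20 (adjusted p = 0.346), of the opposite sign. Its ratios of knockout to wild-type means were 17.0 unstressed and 19.0 treated. Whether the response of Slc38a1 is smaller without CHOP therefore depends on the probe set, while its higher level in the knockout does not.

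Slc38a2 was among the brightest members, with 15365, 13319, 14509 and 14625 on unstressed and 16616, 15885, 15846 and 15439 on treated wild-type arrays. Knockout arrays read 13866, 14518, 14984 and 14606 without and 21513, 21734, 22553 and 22325 with MG132. The unstressed genotypes overlapped, and only the treated knockout arrays stood well apart. The wild-type response was 0.14 (SE 0.04, adjusted p = 0.0081, limma), which fell to 0.04 with quantile normalisation (adjusted p = 0.466) and to 0.09 with centring on the median of all probe sets (adjusted p = 0.300). The knockout response was 0.60 (adjusted p = 3.08e-10, limma) and the interaction was 0.46 (95% interval 0.33 to 0.59, adjusted p = 1.75e-05). The other probe sets gave interactions of -0.13 (adjusted p = 0.495, limma over probe sets) and -0.61 (adjusted p = 0.0664), so this difference was carried by 1 probe set of 3. In wild-type cells those probe sets rose by 0.61 and 0.77 on the log2 scale. Their unstressed genotype differences were 0.35 and 0.21 (adjusted p = 0.00263 and 0.316, limma over probe sets). With MG132 these differences were 0.22 and -0.40 (adjusted p = 0.0422 and 0.0485).

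Slc1a4 and Slc1a5 encode ASCT1 and ASCT2, sodium-dependent exchangers of alanine, serine and cysteine, the latter also known for glutamine uptake. The Slc1a4 promoter held 1 match to the same composite core, on the opposite strand, and is printed for comparison with that of Slc7a11. This match began 4 bases before the annotated start and ran across it, unlike those of Slc7a11. The window is chr11:20332664-20332963, minus strand, RefSeq on GRCm38.p6, with the match in capitals.
Slc1a4: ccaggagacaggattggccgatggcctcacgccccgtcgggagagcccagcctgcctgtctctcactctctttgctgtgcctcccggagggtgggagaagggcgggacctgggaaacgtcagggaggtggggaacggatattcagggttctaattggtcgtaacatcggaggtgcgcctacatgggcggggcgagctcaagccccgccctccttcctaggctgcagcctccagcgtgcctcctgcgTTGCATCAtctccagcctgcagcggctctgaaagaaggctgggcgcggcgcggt
RefSeq windows were matched for 6 of the 10 members: Slc7a11, Slc3a2, Slc7a1, Slc38a2, Slc1a4 and Slc6a9. The composite core was in the windows of Slc7a11 and Slc1a4, and the cAMP response element TGACGTCA, found in 1.79% of all windows, was in none of the 9 windows of these genes. The core of the antioxidant response element, TGACNNNGC, which 12.4% of all windows hold on either strand, was in windows of Slc7a1, Slc38a2 and Slc6a9.

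Slc1a4, on chromosome 11 from 20302180 to 20332713, read 661, 632, 656 and 641 on unstressed and 1132, 902, 1128 and 1046 on treated wild-type arrays. On knockout arrays it read 984, 948, 729 and 909 without MG132 and 1896, 1944, 2255 and 2062 with it. The treated knockout lay above all other groups, and treated wild-type and unstressed knockout arrays overlapped. The log2 response was 0.68 in wild-type and 1.18 in knockout cells (SE 0.09 for both, adjusted p = 1.45e-06 and 6.11e-10, limma). The interaction was 0.50 (95% interval 0.23 to 0.77, adjusted p = 0.00581, limma). The other 2 probe sets gave interactions of 0.34 and 0.30 in the same direction, which missed the threshold (adjusted p = 0.074 and 0.055, limma over probe sets).

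Slc1a5 was the only member lower in unstressed knockout than in unstressed wild-type cells by this test. It lies on chromosome 7 from 16781334 to 16798274. Wild-type arrays read 1277, 1089.5, 976 and 1058 without MG132 and 1492, 1849.5, 1707 and 1742 with it, and knockout arrays read 560.0, 613, 812 and 681 without and 1113, 1454, 1355 and 1410.2 with it. The groups did not overlap within a genotype or within a treatment. The log2 responses were 0.62 and 0.99 (SE 0.11 for both, adjusted p = 4.73e-05 and 1.28e-07, limma), and their difference of 0.37 missed the threshold (adjusted p = 0.0833). That difference was 0.47 without unstressed knockout replicate 3 and 0.45 without treated knockout replicate 1, and passed in both (adjusted p = 0.0226 and 0.0306, limma). The knockout was lower by -0.72 unstressed and -0.35 treated on the log2 scale (adjusted p = 1.23e-05 and 0.00981, limma). The second Slc1a5 probe set was dim, with group means of 111 to 225. It gave -0.11 in wild-type cells (adjusted p = 0.756, limma over probe sets), and in treated cells it was higher in the knockout, by 0.98 (adjusted p = 0.00386).

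Slc6a9 encodes the glycine transporter GlyT1 and lies on chromosome 4 from 117835258 to 117869305. Wild-type arrays read 1089, 1263, 1060.2 and 1010.4 without MG132 and 3112, 2782, 3012 and 2668 with it. Knockout arrays read 932, 1142, 904 and 942 without and 3941, 4508, 3895 and 4266 with it. Unstressed arrays of both genotypes overlapped, whereas the treated knockout arrays all exceeded the treated wild-type arrays. The log2 response was 1.38 in wild-type and 2.07 in knockout cells (SE 0.08 for both, adjusted p = 9.20e-12 and 1.96e-14, limma), 243rd and 40th among the tested genes. The interaction was 0.69 (95% interval 0.45 to 0.93, adjusted p = 0.000144, limma), the largest positive one among the members. The second Slc6a9 probe set rose from 489 to 1354 in wild-type and from 488 to 1652 in knockout cells, with an interaction of 0.28 that missed the threshold (adjusted p = 0.155, limma over probe sets).

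Of the 20 probe sets, MG132 was followed by a rise of 19 in wild-type cells and of 18 in the knockout, and none fell. Among the 21651 tested probe sets 27.3% rose and 31.5% fell in wild-type cells, and 24.1% rose and 32.3% fell in the knockout. The exceptions were the dim Slc1a5 probe set in wild-type cells, and in the knockout the suffixed Slc38a1 probe set and a dim Slc38a2 probe set with a response of 0.16 (adjusted p = 0.437, limma over probe sets). The interaction was higher for 3 and lower for 2 of the 20, beside 11.2% and 13% of all tested probe sets. In unstressed cells 11 were higher and 1 lower in the knockout, beside 25.7% and 24.1% of all, and in treated cells 15 were higher and 5 lower, beside 26.6% and 27.9%.

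**Figure D3:**
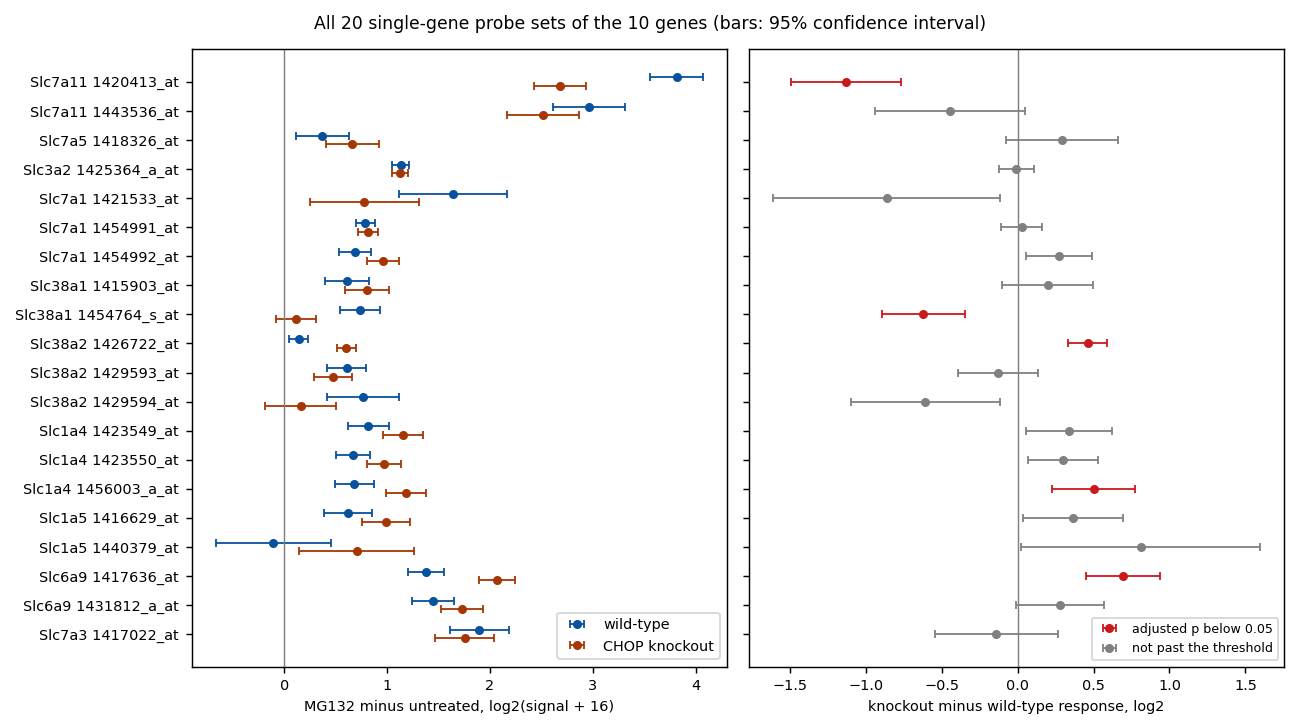
Left, log2 response to MG132 of each of the 20 single-gene probe sets in wild-type and CHOP knockout cells; right, knockout minus wild-type response, with the 5 that passed the threshold in red and 95% intervals throughout. On the left, intervals of 19 wild-type and 18 knockout values lie above 0; the probe sets of Slc7a11 lie together at the high end, and those of Slc38a1 and Slc38a2 differ from one another in which genotype responded more.

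The test of the difference between the responses called 5 members. By the brightest probe set of each gene, the increase was larger without CHOP for Slc6a9, Slc1a4 and Slc38a2, and smaller for Slc7a11 and Slc38a1. Among all tested genes 14.2% had a higher and 14.1% a lower response in the knockout, and the members' median difference was 0.16 beside -0.00 for all genes. The split of all such calls depends on scaling: 50.1% were higher in the knockout, 38.6% with centring on the tested genes' median and 69.7% with centring on the median of all probe sets. The 5 member calls and their directions were the same under those centrings and under quantile normalisation. Each of the 5 came from the brightest probe set of its gene, and no second probe set of these genes passed. For Slc38a2 the other probe sets had the opposite sign, at -0.13 and -0.61, as did that of Slc38a1, at 0.20. The direction for these genes therefore depends on the probe set. For Slc3a2, Slc7a1 and Slc7a3 the intervals of the difference included 0, and the first 2 were within 0.16 of it.

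Knockout and wild-type cells also differed before any stress, a comparison that shares arrays with the responses and is described by its own values. In unstressed cells 7 members were higher and 1 lower in the knockout, where 28.6% of all tested genes were higher and 26.9% lower. With centring on the tested genes' median, 60.9% rather than 51.5% of all unstressed genotype calls were higher. With MG132, 8 were higher and 2 lower, beside 30.7% and 28.1% of all genes, and with centring on the median of all probe sets 63.4% rather than 52.3% of all treated genotype calls were higher. The members' median genotype difference was 0.46 unstressed and 0.55 treated on the log2 scale, against 0.01 and 0.02 for all genes. Slc38a1 led with 6.002, Slc7a3 followed with 2.03, and Slc7a1, Slc7a5, Slc3a2 and Slc1a4 lay between 0.44 and 0.56. The call for unstressed Slc7a11, a difference of 0.29 between overlapping groups (adjusted p = 0.0466, limma), was lost in a fit of the 8 unstressed arrays alone (adjusted p = 0.202). The genotypes differed at 55.6% of all tested genes before treatment, and whether CHOP or another difference between the cells sets these levels cannot be told apart.

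**Figure D4:**
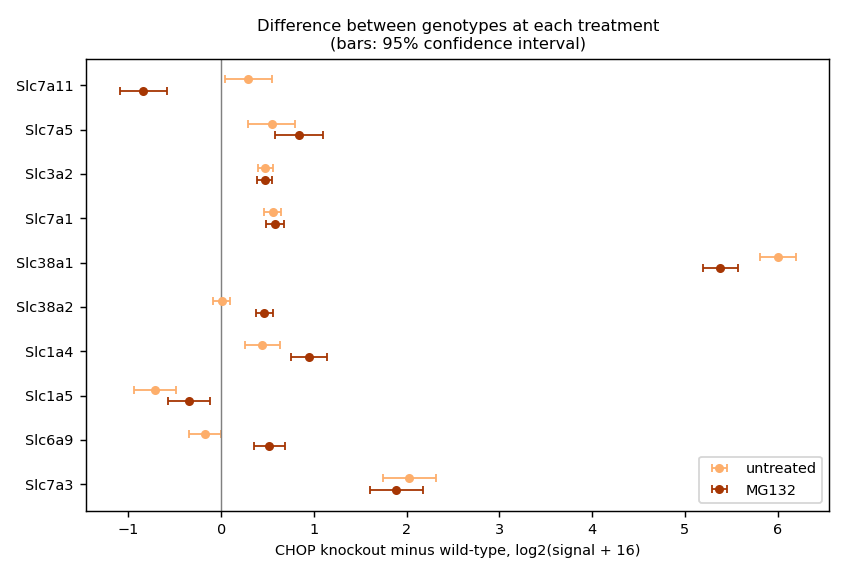
log2 difference between CHOP knockout and wild-type cells for each transporter, unstressed and after MG132, with 95% intervals. Slc38a1 lies near 6 and Slc7a3 near 2 in both conditions, Slc1a5 lies below 0 in both, and Slc7a11 is below 0 after MG132 only.

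Other carriers of amino acids were counted by the same limma calls, against 27.2% of all tested genes that rose and 36.9% that fell in wild-type cells. In knockout cells these shares of all tested genes were 25.7% and 36.8%. Of 33 further plasma membrane transporters 13 were tested, and in wild-type cells 3 rose and 5 fell, shares of 23.1% and 38.5% that were near those of all genes, while 1 rose and 6 fell in the knockout. Slc16a10, an aromatic amino acid transporter, gave 0.96 and 1.12 in wild-type and knockout cells on the log2 scale, the taurine transporter Slc6a6 gave -0.86 and -0.36, and the glutamate transporter Slc1a3 gave -1.04 and -0.51. Of the 7 tested lysosomal transporters 6 rose in wild-type and 4 in knockout cells and none fell, among them Slc66a1, an exporter of cationic amino acids, with 1.11 and 1.17. Ctns, which exports cystine from the lysosome, gave 0.70 and 0.97. Of the 10 tested mitochondrial carriers 3 rose and 7 fell in wild-type cells, with -1.38 for the aspartate-glutamate carrier Slc25a12 and 0.90 for the glycine carrier Slc25a38. In the knockout 2 of these carriers rose and 6 fell. The median wild-type responses were -0.01, 0.52 and -0.55 for these classes, against 0.76 for the 10 members.

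**Figure D5:**
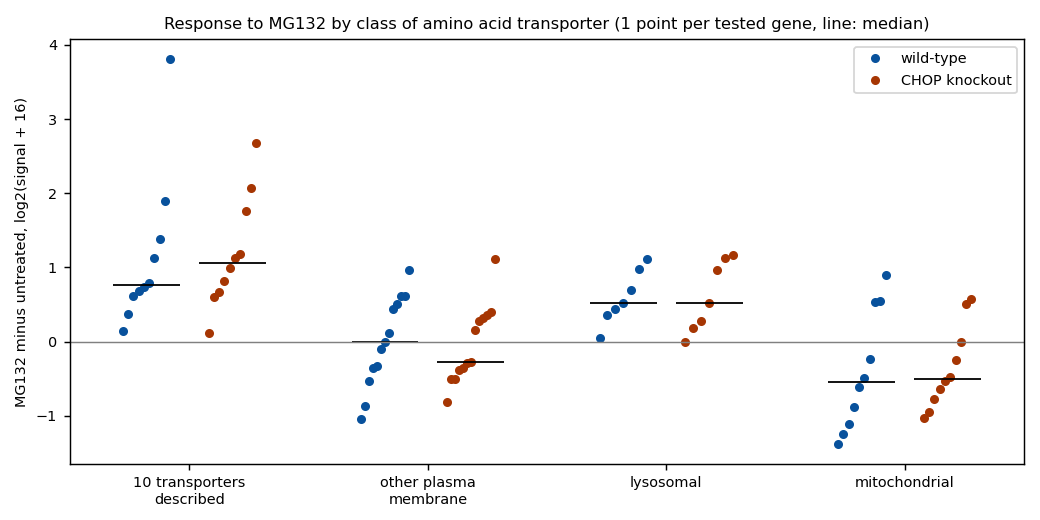
log2 response to MG132 of every tested gene in each class of amino acid transporter, in wild-type and CHOP knockout cells, with 1 point per gene on the y axis and lines at the class medians. The 10 members lie above 0, the lysosomal class lies mostly above 0, the mitochondrial carriers lie mostly below, and the other plasma membrane transporters fall on both sides.

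Among the regulators, Atf4 itself rose by 0.53 in wild-type and 0.56 in knockout cells, with an interaction of 0.04 (95% interval -0.13 to 0.20, adjusted p = 0.776, limma), from mean signals of 11295 to 16248 in wild-type and 16953 to 25059 in knockout cells. Its log2 genotype difference was 0.59 unstressed and 0.62 treated, beside 0.56 and 0.58 for Slc7a1. Trib3, an ATF4 and CHOP target that encodes a pseudokinase, rose by 2.29 and 2.15. Nfe2l2, which encodes the antioxidant factor NRF2, gave -0.02 and 0.30 and was lower in unstressed knockout cells by -0.96. Of the 15 kinases, factors and regulators around eIF2 alpha and ATF4, 10 rose and 3 fell in wild-type cells, and 8 rose and 1 fell in the knockout, beside 27.2% and 36.9% of all tested genes in wild-type and 25.7% and 36.8% in knockout cells.

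Of 10 tested genes for cystine use and glutathione, 9 rose in wild-type cells and none fell, and in knockout cells 8 rose and 2 fell, against the same shares of all tested genes. Chac1, which degrades glutathione, rose by 3.68 and 2.77, an interaction of -0.91 with the same sign as that of Slc7a11. Gclc, the catalytic subunit of the first step of glutathione synthesis, rose by 0.96 and 1.05, and Cth, which makes cysteine from cystathionine, by 0.97 and 1.61. Gss, glutathione synthetase, rose by 0.20 in wild-type cells and fell by 0.60 in the knockout. Of 13 tested genes that sense amino acids upstream of mTORC1, 5 rose and 6 fell in wild-type cells, shares of 38.5% and 46.2% beside 27.2% and 36.9% of all genes, and 3 rose and 5 fell in the knockout, beside 25.7% and 36.8%. Among them Sesn2, a leucine sensor, rose by 1.85 and 1.77, and Rragd, a Rag GTPase, gave 2.11 and 0.44 from unstressed means of 16.7 and 126, the first well below the array median.

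Each member's closest genes were taken as those with the highest Pearson correlation of log2 signal over the 16 arrays, given as a description because the arrays share their groups. Slc7a3 ran closest to Atf4 (r = 0.991) and Mthfd2 (r = 0.985), a mitochondrial folate enzyme. Slc3a2 ran closest to Nufip1 (r = 0.997), and Psph, the last enzyme of serine synthesis, was among its 3 closest (r = 0.995). Slc7a1 was closest to Lsg1 (r = 0.992), and Eif4ebp1, a translation repressor, was among its 3 closest (r = 0.987). Slc7a11 was closest to Hspb1, a small heat shock protein (r = 0.994), and Slc38a1, whose level followed genotype, to Atp1b1 (r = 0.997). Among the members themselves Slc3a2 and Slc7a1 had r = 0.972.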

How the data were processed

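Gene expression was measured on 1-colour Affymetrix arrays. The deposited values were linear MAS5 signal intensities, per the submitters' processing notes, and the table's values had a common mean of 1000 after trimming 2% at each end. Detection calls were not analysed here, and precision is limited by the 4 arrays per group. Of 45101 probe sets, 64 controls, 9160 without a gene and 932 with several genes were left out. Signals were analysed as log2(signal + 16), with the probe set of highest mean per gene. Genes above the array median on at least 4 of 16 arrays were fitted with limma 3.58.1 (R 4.3.3) using 1 coefficient per group and a variance trend. Benjamini-Hochberg adjustment ran over 11451 genes in each of 5 comparisons, or over 21651 probe sets where stated. The fit was tested on simulated data. The members and the gene lists were chosen with earlier results of these data known. Every member and probe set was described, and from each other list the genes with the smallest adjusted p in the wild-type response and in the interaction could be named, beside Atf4, Ddit3, Atf5, Nfe2l2, Trib3 and Sesn2. Alternatives covered scaling, filtering, probe-set choice, the added constant, the variance trend, the samples fitted and each array left out.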

Additional observations from a re-analysis of the deposited data

Results flagged for a closer look

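One array stood apart from the other 3 of its group in 2 of the 40 groups of values examined (10 members in 4 groups), where chance alone flags about 1 group in 20. Slc7a5 read 4386 on unstressed wild-type replicate 3, while the other arrays of that group read 6143 to 6523, a gap of 0.849 of the group's range on the log2 scale, beyond Dixon's critical value. Slc7a3 read 322 on unstressed knockout replicate 3, while the others read 383 to 396, a gap of 0.846 of the range.

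The response to MG132 differed between the genotypes by the interaction term for 5 members (limma, adjusted over all tested genes). Among all tested genes 14.2% had a higher and 14.1% a lower response in the knockout by the same call. The knockout response was lower for Slc7a11 by a log2 difference of -1.13 (adjusted p = 5.77e-05) and for Slc38a1 by -0.62 (adjusted p = 0.0012). It was higher for Slc38a2 by 0.46 (adjusted p = 1.75e-05), for Slc1a4 by 0.50 (adjusted p = 0.00581) and for Slc6a9 by 0.69 (adjusted p = 0.000144). The Slc38a1 difference changed sign on its other probe set. So did the Slc38a2 difference on its other probe sets, at -0.13 and -0.61, neither past the threshold.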

How the results depend on the processing

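Of 1045 recomputed member values, 1017 stayed on their side of the threshold, and those past it kept their direction. Values that were not called could change sign: interactions ran from -0.29 to 0.16 for Slc7a3, -0.07 to 0.08 for Slc3a2 and -0.04 to 0.12 for Slc7a1, and the unstressed genotype difference of Slc38a2 from -0.06 to 0.08. A total of 17 lost a call, 10 gained one, and the Slc38a1 interaction reversed, to 0.20 (adjusted p = 0.326, limma), without suffixed probe sets, where Slc1a4's interaction also missed the threshold (0.34, adjusted p = 0.0646), leaving 1 member called lower. Slc3a2 has no unsuffixed probe set and gave no value there. A stricter filter, which also asked for a mean signal above the tested genes' median, kept Slc7a5, Slc3a2, Slc7a1, Slc38a1, Slc38a2 and Slc6a9. With it 6 members rose in wild-type and 5 in knockout cells, and 1 had a lower interaction. In unstressed cells 4 were higher and 0 lower in the knockout, and 0 were lower in treated cells. Fewer genes were then tested, and no share of them is given, so these member counts are not set against all genes. Of those genes 2062 rose and 2349 fell in wild-type cells and 2279 fell in the knockout. The interaction was lower for 1049 genes, 1923 were higher and 1695 lower in the unstressed knockout, and 2166 and 1703 in the treated one.

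Centring on the median of all probe sets, an alternative chosen after seeing the data, left 715 genes with a lower interaction instead of 1616, and 1 member lower in the treated knockout, as did averaging each gene's probe sets. The member lost was Slc1a5, at -0.25 (adjusted p = 0.0854, limma) and -0.21 (adjusted p = 0.0792). Quantile normalisation left 3 rather than 5 member probe sets lower in the treated knockout. Slc38a1's knockout response was called with tested-gene centring (0.26), with averaged probe sets (0.34) and in the fit of the compared groups alone (0.11). It was also called without suffixed probe sets, at 0.81 (adjusted p = 7.12e-07, limma). The cause of these changes was not tested. With each array left out in turn, the number of members lower in the unstressed knockout ran from 1 to 2; it was 2 without unstressed wild-type replicate 4 or knockout replicate 2, when Slc6a9 joined at -0.21 and -0.25. The call for Slc7a11 in unstressed cells ended in 4 of these fits, with values of 0.16 to 0.31.

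Replicate numbers recur in all groups, but deviations from group means of same-numbered arrays correlated at only -0.07 to 0.16. These values cover 24 pairs of arrays, with 5 over 0.1, and the numbers were not taken to pair the arrays. Arrays with different numbers were not compared in this way. With the replicate number as a block, 2 members rather than 1 were lower in the unstressed knockout, Slc6a9 joining at -0.17 (adjusted p = 0.0467, limma), and unstressed Slc7a11 missed the threshold (0.29, adjusted p = 0.0534).

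Signals near the array median limit the folds of Slc7a11, Slc7a3 and Slc38a1 in unstressed wild-type cells.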

Other observations

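Slc38a1's neighbours on chromosome 15 were looked up after its values had been seen. Of the 6 genes on either side in the RefSeq order, 6 of 12 were tested. In unstressed cells Slc38a4, another sodium-coupled neutral amino acid transporter, was higher in the knockout by a log2 difference of 1.24 (adjusted p = 1.51e-11, limma), from a mean signal of 2355 in wild-type to 5579 in knockout cells. Slc38a2, which lies between Slc38a1 and Slc38a4, gave 0.01 by its brightest probe set (adjusted p = 0.932). Its other probe sets gave 0.35 (adjusted p = 0.00263, limma over probe sets) and 0.21 (adjusted p = 0.316). The splicing factor gene Scaf11 was higher by 0.26 and Rpap3 by 0.30. Ano6, a membrane scramblase gene, was lower by -0.63, and Arid2 gave 0.13 (adjusted p = 0.163).

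Slc7a5 signals on replicates 2 and 4 lay above those on replicates 1 and 3 in the treated wild-type group and in both knockout groups. In treated knockout cells these were 14586 and 15376 against 11683 and 12465.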
